A study of Mus musculus with 8 samples.

Results

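Endothelial cells line blood vessels, and their genes can be read in cells sorted from a tissue that holds vessels. The 9 genes described here, Pecam1, Cdh5, Tek, Tie1, Eng, Vwf, Esam, Cldn5 and Emcn, are textbook markers of that lining. They were taken by symbol from the array table, where 11 probe sets carried 1 of these symbols alone, and the probe set with the highest mean signal over the 8 arrays stood for each gene. All 9 of the listed genes were found, among 18193 genes with a probe set of their own. The cells were sorted for Cd11b (stained with Cd11b-PE) from collagenase-digested mammary glands and are labelled as mammary gland macrophages. The donors were female mice of the inbred FVB background, 6 weeks old at the start. MMTV-iFGFR1 transgenic mice carry an inducible fibroblast growth factor receptor 1 (FGFR1) driven by the MMTV promoter, used mainly for expression in mammary epithelium, and the control mice were littermates without the transgene. Mice of all 4 groups received the dimerizer that activates the inducible receptor. The groups were transgenic and control mice after 48 hours, and transgenic and control mice after 4 weeks. Each group had 2 arrays, and RNA of 3 mice was pooled per array.

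As background, endothelial cells are held together by junctions. Cdh5 (VE-cadherin) forms the adherens junction, Cldn5 and Esam belong to the tight junction, and Pecam1 (CD31) is an adhesion molecule of cell contacts that leukocytes and platelets also carry. Tek (Tie2) is the receptor for the angiopoietins and Tie1 its partner receptor, while Eng (endoglin) is a co-receptor for ligands of the TGF-beta and BMP families. Some macrophages also carry Tek and Eng. Vwf is a clotting protein stored in endothelial cells and platelets, and Emcn (endomucin) is a sialomucin of capillaries and veins. Endothelial cells do not normally carry Cd11b. In pooled sorted cells, fewer cells of a type and less RNA per cell cannot be told apart.

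The values are linear signals made with MAS5, an Affymetrix summary of the probes of a probe set, scaled by the authors so that the trimmed mean was the same on every array, at 499.3 to 499.8 units. Array medians ran from 96.4 to 126.9 units. The macrophage genes Csf1r (68311 to 93065 units) and Adgre1 (9842 to 14627) were bright on all 8 arrays. Itgam, which encodes Cd11b, gave 46.8 units on control 4 weeks pool 2, where the array median was 122.1. On all other arrays Itgam gave 184 to 545 units. Fgfr1 gave 581 to 1853 units, which does not check a transgene that is driven in epithelium. Beta-actin probe sets at the 3′ end over those at the 5′ end, a ratio that grows as RNA shortens, gave 37.0 for control 4 weeks pool 2, against 6.84 to 13.9 for all other pools. Transgenic 4 weeks pool 2 is described in 1 label as coming from mice without the transgene, against its title, source and genotype labels. For the endothelial genes described here, the median of each comparison that rests on this pool is also given without it. Their count by pool number is also given without its group. Overlap counts, counts by unadjusted p and by brightest array, and values of the other gene lists are given with this pool only. No label says that the pools were processed on separate days, and p-values measure the spread between pools.

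The tight junction gene Cldn5 varied 5.48-fold over the 8 arrays. It had a signal of 376 and 1961 units in the transgenic pools 1 and 2 at 48 hours, against 646 and 945 in the control pools 1 and 2. The values of 4 weeks were 459 and 769 units in transgenic pools, against 358 and 936 in control pools. The values of the 2 transgenic pools lay on either side of the control values at 48 hours, and the groups overlapped at 4 weeks as well. Esam gave 482 and 1097 units in transgenic pools at 48 hours, against 455 and 627 in control pools. At 4 weeks Esam gave 309 and 522 units in transgenic pools, against 313 and 729 in control pools. As for Cldn5, the array with the highest Esam signal was transgenic 48 hours pool 2, and the groups overlapped at both times.

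Cdh5 was dimmer. It gave 81.0 and 407 units in transgenic pools at 48 hours, against 193 and 74.9 in control pools. Its signal at 4 weeks was 89.2 and 295 units in transgenic pools, against 185 and 279 in control pools. The transgenic pools of either time spanned a wider range than the control pools. A second Cdh5 probe set gave 4.7 to 64.8 units and lay below the array median on all arrays. Pecam1 gave 14.5 and 81.4 units in transgenic pools at 48 hours, against 91.0 and 28.2 in control pools. At 4 weeks Pecam1 gave 129 and 62.1 units in transgenic pools, against 238 and 17.6 in control pools. It exceeded the array median on 2 arrays, the pools numbered 1 of both 4 weeks groups, so its differences rest on dim values.

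The angiopoietin receptor Tek varied least of the set, with a highest signal 1.73-fold the lowest. It gave 168 and 291 units in transgenic pools at 48 hours, against 189 and 188 in control pools. The 4 weeks values were 258 and 181 units in transgenic pools, against 268 and 231 in control pools. Both control pools of 4 weeks lay above both control pools of 48 hours, and the other group pairs compared overlapped. Tie1 was below the array median on all 8 arrays. It gave 9.4 and 77.2 units in transgenic pools at 48 hours, against 63.6 and 5.8 in control pools, and at 4 weeks 31.0 and 11.1 units in transgenic pools, against 14.1 and 15.6 in control pools. With no detection calls in the table, signals as low as these cannot be told from absence, and Tie1 was not tested.

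Eng gave 583 and 876 units in transgenic pools at 48 hours, against 465 and 592 in control pools. Eng at 4 weeks gave 593 and 613 units in transgenic pools, against 509 and 696 in control pools. The transgenic range at 48 hours began just below the upper control value, so the groups overlapped. A second Eng probe set, also above the median on all 8 arrays, put the arrays in another order. It gave 379 and 561 units in transgenic pools at 48 hours, against 562 and 257 in control pools, and 483 and 684 units in transgenic pools at 4 weeks, against 641 and 577 in control pools. Its highest signal was on transgenic 4 weeks pool 2, and the probe sets of Eng thus disagreed on which array was highest.

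Vwf varied 5.90-fold over the 8 arrays and had the largest difference of the set at 48 hours. It gave 336 and 1204 units in transgenic pools at that time, against 204 and 450.1 in control pools. Vwf at 4 weeks gave 408 and 978 units in transgenic pools, against 398 and 727 in control pools. The lower transgenic pool lay between the control pools at both times. Emcn gave 97.3 and 184 units in transgenic pools at 48 hours, against 116 and 176 in control pools. At 4 weeks Emcn gave 144 and 136 units in transgenic pools, against 145 and 238 in control pools. Both transgenic pools of 4 weeks lay below both control pools for Emcn, with 144 and 145 units as the nearest values.

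**Figure D1:**
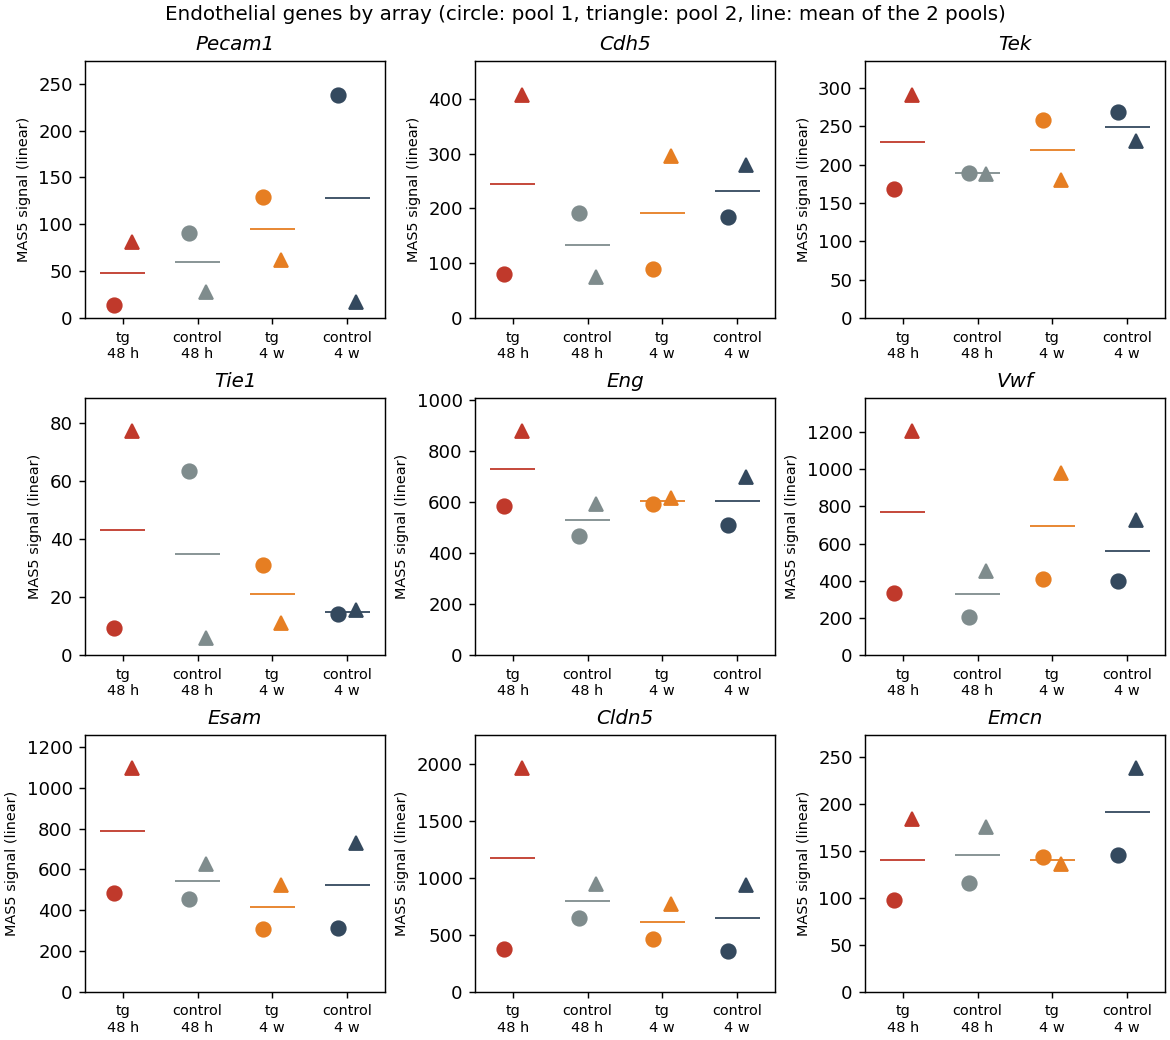
Linear MAS5 signal (vertical axes, starting at 0) of the 9 endothelial genes on each array, by group; circles are pool 1, triangles pool 2 and lines the mean of the 2 pools. Transgenic 48 hours pool 2 has the highest signal for 7 of the 9 genes, while the other transgenic 48 hours pool lies between or below the control 48 hours pools for each gene.

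The promoters of Cldn5, Eng and Tek are shown because Cldn5 and Eng had a higher signal in the pool numbered 2 of every group and Tek did not. For Eng this holds for the probe set used, and its second probe set was lower in pool 2 of both control groups. They are RefSeq sequences of build GRCm38.p6, from 250 bases before to 50 bases after the start of the gene, 5′ to 3′ on the strand of the gene. Cldn5 lies on the plus strand at chr16:18776597-18776896, Eng on the plus strand at chr2:32646345-32646644 and Tek on the plus strand at chr4:94739039-94739338. Capitals mark matches to AGGAAG or CGGAAG, forms of the core bound by ETS transcription factors, on either strand (CTTCCT or CTTCCG when read on the other).
Cldn5: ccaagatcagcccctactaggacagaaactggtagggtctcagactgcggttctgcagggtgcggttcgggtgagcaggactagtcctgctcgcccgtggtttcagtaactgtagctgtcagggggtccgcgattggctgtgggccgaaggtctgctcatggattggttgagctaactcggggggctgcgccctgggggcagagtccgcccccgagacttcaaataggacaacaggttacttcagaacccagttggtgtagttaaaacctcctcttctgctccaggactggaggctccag
Eng: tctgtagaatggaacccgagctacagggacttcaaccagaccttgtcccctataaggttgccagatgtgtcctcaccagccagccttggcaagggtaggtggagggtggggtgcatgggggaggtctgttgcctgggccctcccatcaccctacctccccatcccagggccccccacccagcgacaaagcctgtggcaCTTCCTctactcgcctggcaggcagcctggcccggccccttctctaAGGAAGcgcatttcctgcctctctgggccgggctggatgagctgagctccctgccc
Tek: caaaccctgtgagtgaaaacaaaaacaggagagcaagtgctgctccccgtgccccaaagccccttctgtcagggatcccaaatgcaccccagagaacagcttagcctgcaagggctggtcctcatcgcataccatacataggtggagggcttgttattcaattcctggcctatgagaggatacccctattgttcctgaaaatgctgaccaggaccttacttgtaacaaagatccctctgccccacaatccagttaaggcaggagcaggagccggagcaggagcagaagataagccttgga
Of the 9 genes, 5 had a promoter in the RefSeq table used. The Eng promoter held 2 matches, that of Emcn 2 and that of Tie1 3, while those of Cldn5 and Tek held 0. Of all 32851 promoters of 300 bases in the table, 46.5% held at least 1 match and 15.9% at least 2. A match is a run of letters and does not show a bound site.

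The comparison at 48 hours addressed what differs soon after the receptor is activated. Vwf had a log2 difference of 1.00 (SE 0.61) between transgenic and control pools, on the scale log2(signal + 30.8). Cdh5 followed at 0.53 (SE 0.70), Esam at 0.43 (SE 0.48), Eng at 0.42 (SE 0.31), Tek at 0.21 (SE 0.38) and Cldn5 at 0.15 (SE 0.66). Pecam1 (−0.25, SE 0.89) and Emcn (−0.07, SE 0.45) had a lower mean in transgenic pools. The Vwf and Eng differences exceeded 1 SE, and every 95% interval included 0. Of the 8 genes that passed the filter on dim signals, 0 passed an adjusted p of 0.05 in limma, with adjusted p from 0.976 to 0.991, and 0 had an unadjusted p under 0.05. Over all genes tested, 0% were called, and 4.07% had an unadjusted p under 0.05. The 95% interval of the Vwf difference ran from −0.36 to 2.36, so neither no difference nor a large one lies outside it. For none of the 8 genes did both transgenic pools lie above, or both below, the control pools, where 18.9% of all genes tested lay above and 16.1% below.

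The differences at 48 hours turned on which transgenic pool was used. The median log2 difference of the 9 genes was 0.21, with 7 of 9 positive, against a median of 0.04 and 54% positive over all genes tested. Without transgenic 48 hours pool 2 the median was −0.44, and without transgenic 48 hours pool 1 it was 0.88. Cldn5 had a log2 difference of −0.998 without transgenic pool 2 and 1.29 without transgenic pool 1. Vwf had 0.13 without transgenic pool 2 and 1.88 without transgenic pool 1. Without pool 2, Eng (0.14) and Vwf alone of the 9 genes kept a positive difference. Each of these fits rests on 1 transgenic pool, assumed to vary like the other groups. With the actin ratio as a covariate and all pools kept, the median was 0.56.

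**Figure D2:**
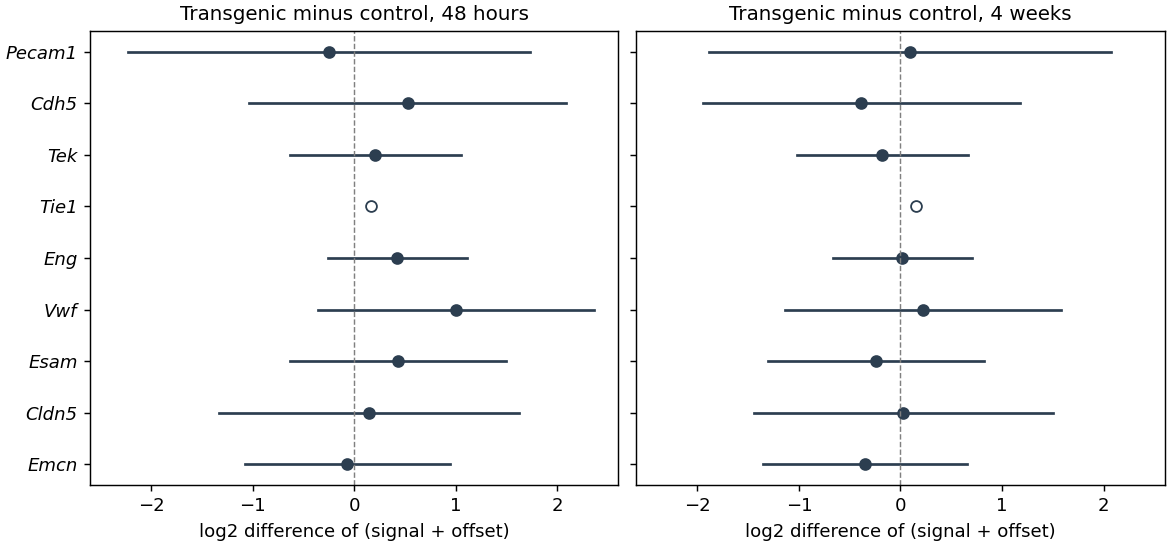
Log2 difference of transgenic minus control pools at 48 hours (left) and 4 weeks (right) for each gene, with 95% intervals from limma; the open circle is Tie1, which was not tested. Every interval includes 0 at both times.

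The comparison at 4 weeks addressed what differs after sustained activation. The differences were smaller than at 48 hours for Vwf, at 0.22 (SE 0.61), and lay on the other side of 0 for Cdh5, at −0.38 (SE 0.70), and for Esam, at −0.24 (SE 0.48). Emcn had −0.35 (SE 0.45) and Tek −0.18 (SE 0.38). Cldn5 (0.03, SE 0.66), Eng (0.02, SE 0.31) and Pecam1 (0.09, SE 0.89) had differences near 0 with wide errors. Of the 8 genes tested, 0 passed in limma, with adjusted p from 0.995 to 0.997, and 0 had an unadjusted p under 0.05. Over all genes tested, 0% were called, and 5.08% had an unadjusted p under 0.05. Emcn was the 1 gene of 8 with both transgenic pools below both control pools, where 17.2% of all genes tested lay below, and 0 of 8 lay above, where 14.7% did. The median log2 difference of the 9 genes was 0.02, against −0.02 over all genes tested. Without transgenic 4 weeks pool 2, the pool with the conflicting label, it was −0.32, and Cdh5 then had −1.11, Vwf −0.38 and Cldn5 −0.32. Without control 4 weeks pool 2, whose actin ratio was 37.0, the median was 0.18. With that ratio as a covariate it was 0.32, and Cldn5 then had 0.99 and Vwf 0.91, with 0 genes of the 8 passing.

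**Figure D3:**
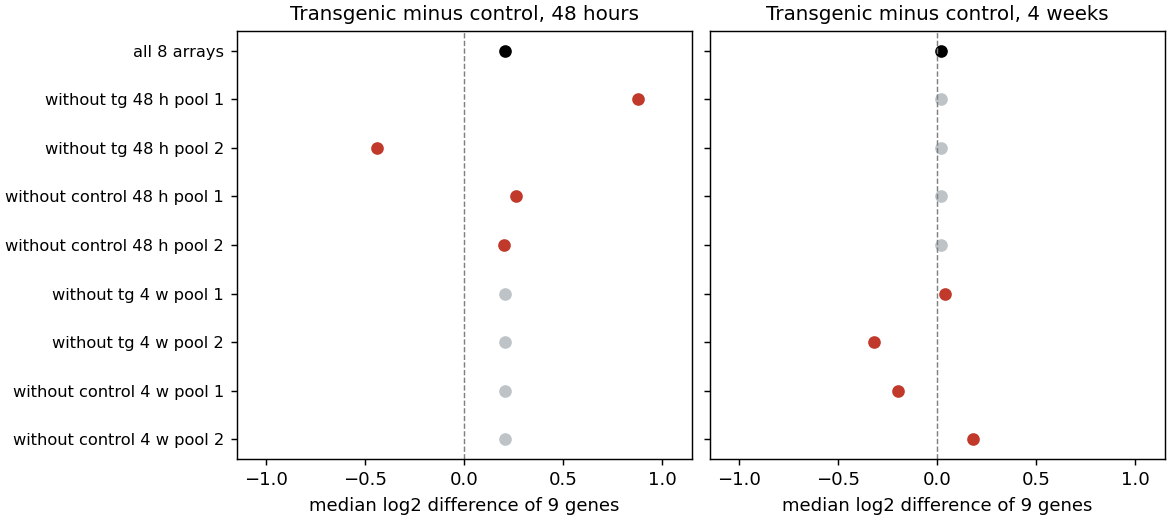
Median log2 difference of the 9 genes, transgenic minus control, at 48 hours (left) and 4 weeks (right), with all 8 arrays (black) and without each array in turn (red where the array belongs to that time, grey where it cannot move the value). At 48 hours the median is 0.21 with all arrays, 0.88 without transgenic pool 1 and −0.44 without transgenic pool 2.

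The genotype difference itself was not shown to change with time. Of the 8 genes, 0 passed for the difference between 4 weeks and 48 hours, where 0% of all genes tested were called, and 0 had an unadjusted p under 0.05, against 4.74% of all genes tested. The median of the 9 genes was −0.39 with 8 of 9 negative, against −0.06 over all genes tested, and it was 0.09 without transgenic 48 hours pool 2 and −0.43 without transgenic 4 weeks pool 2. Between 4 weeks and 48 hours in transgenic pools the 9 genes had log2 differences from −0.81 to 0.77, and in control pools from −0.41 to 0.76. The transgenic median was −0.16, and it was −0.26 without transgenic 4 weeks pool 2 and 0.41 without transgenic 48 hours pool 2. These comparisons share pools with the genotype comparisons. Of the 8 genes 0 passed in either, where 0% of all genes tested were called in transgenic and 0.00767% in control pools, which is 1 gene, F5, named because it is the only one. At an unadjusted p under 0.05 the endothelial count was 0 in both, against 2.19% of all genes in transgenic and 6.16% in control pools. For Tek alone of the 8 genes the control pools of 4 weeks lay above those of 48 hours, as 18% of all genes tested did. With both times together the transgenic minus control median was 0.09, from −0.21 for Emcn to 0.61 for Vwf. It was 0.043 without transgenic 4 weeks pool 2, −0.20 without transgenic 48 hours pool 2 and 0.46 with the actin ratio as a covariate. In this comparison 0 of the 8 genes passed, where 0% of all genes tested were called and 4.58% had an unadjusted p under 0.05.

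The spread within groups had a pattern that the genotype comparisons do not show. Of the 8 genes tested, 6 had their highest signal on transgenic 48 hours pool 2, where 9.6% of all genes tested had theirs. These were Cdh5, Tek, Eng, Vwf, Esam and Cldn5, and Tie1, which was not tested, also peaked there. Pecam1 peaked on control 4 weeks pool 1, as 15.3% of all genes tested did, and Emcn on control 4 weeks pool 2, as 18.2% did. None of the 8 peaked on transgenic 48 hours pool 1 (10.2% of all genes tested), transgenic 4 weeks pools 1 and 2 (10.4% and 11.9%) or control 48 hours pools 1 and 2 (15.1% and 9.27%). Relative to its mean over the arrays, the log2 value on transgenic 48 hours pool 2 was 1.45 for Cldn5, 1.19 for Vwf, 1.10 for Cdh5 and 1.02 for Esam. On transgenic 48 hours pool 1, from the same group, these genes stood at −0.84, −0.56, −0.87 and −0.11. The summed signal of the 9 genes was 2148 and 6178 units in the transgenic 48 hours pools, against 2422 to 3087 in the control 48 hours pools. At 4 weeks the sum was 2418 to 3567 units in transgenic pools, against 2428 to 3868 in control pools. The actin ratio of transgenic 48 hours pool 2 was 11.4 and its Gapdh ratio 7.54, within the range of the other arrays. Transgenic 48 hours pool 1 had an actin ratio of 6.84, the lowest of the 8 arrays, and a Gapdh ratio of 7.15.

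**Figure D4:**
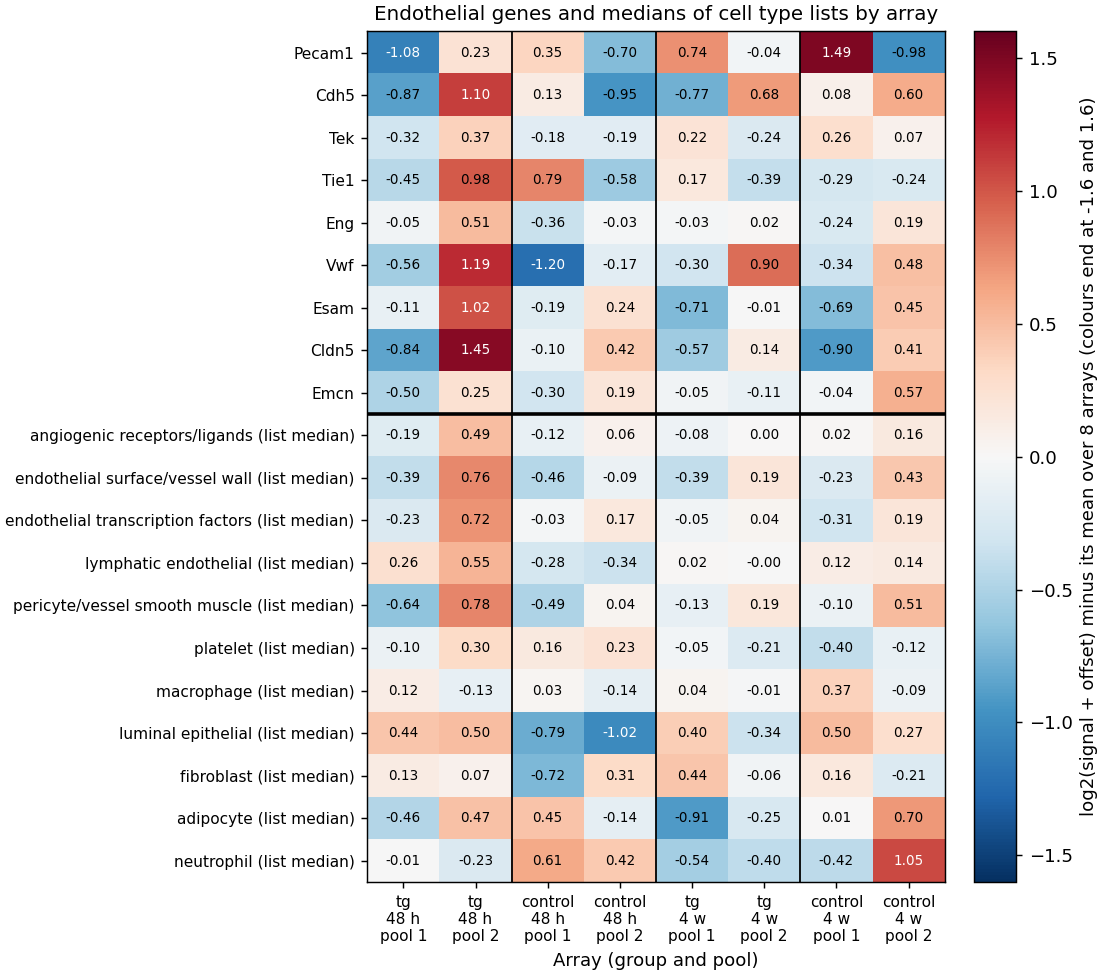
Log2(signal + offset) minus its mean over the 8 arrays for each endothelial gene (upper rows) and the median of this value over each cell type list (lower rows); columns are arrays. The column of transgenic 48 hours pool 2 is positive for all 9 genes, and its list medians are 0.76 for endothelial surface genes and 0.78 for pericyte genes, against −0.13 for macrophage genes.

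A further pattern followed the pool number. Cldn5, Eng, Esam and Vwf, 4 of the 8 genes tested, had a higher signal in the pool numbered 2 than in the pool numbered 1 of every group. Over all genes tested, 8.53% did so, and 8.73% were lower in the pool numbered 2 of every group, as 0 of the 8 were. Leaving out the transgenic 4 weeks group, whose pool 2 has the conflicting label, Emcn joined them and 5 of 8 genes were higher in the pool numbered 2 of the other 3 groups, against 14.4% of all genes tested. The log2 difference between the pools ran from 0.82 to 1.75 over the 4 groups for Vwf, from 0.53 to 2.29 for Cldn5, from 0.44 to 1.14 for Esam and from 0.05 to 0.56 for Eng. Pecam1 went the other way in 3 of 4 groups, with a difference of −2.47 between the control pools of 4 weeks. In both 48 hours groups Pecam1 moved with Cdh5, which differed by 1.97 between the transgenic pools and −1.08 between the control pools, against 1.31 and −1.05 for Pecam1. Pecam1 was below the array median on 6 of 8 arrays. The second Eng probe set did not follow the pool number either, being lower in pool 2 of both control groups. The labels do not say that a number marks a shared day or preparation. Over all genes tested, the pool differences of any 2 groups had correlations of only −0.085 to 0.13. The cause of the pattern was not tested.

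**Figure D5:**
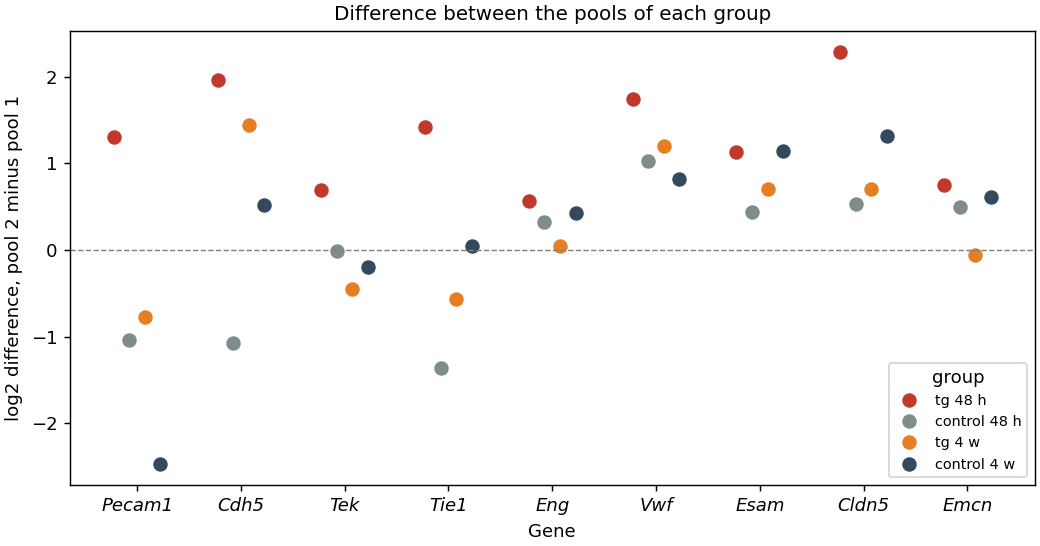
Log2 difference between the pools numbered 2 and 1 of each group (vertical axis) for the 9 endothelial genes (horizontal axis), coloured by group. All 4 points lie above 0 for Eng, Vwf, Esam and Cldn5, while 3 of 4 lie below 0 for Pecam1 and Tek.

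Other endothelial genes were listed by role, but with earlier results of these data known, so their counts are not an independent check. Of 45 tested genes in the lists of angiogenic receptors and ligands, of endothelial surface and vessel wall genes, and of endothelial transcription factors, 26 had their highest signal on transgenic 48 hours pool 2 and 17 were higher in the pool numbered 2 of every group, with 0 lower in every group. Over all genes tested, 9.6% peaked on that array, and 8.53% were higher and 8.73% lower in the pool numbered 2 of every group. By list, those that peaked there and those higher in every group were 5 and 5 of 16 angiogenic receptors and ligands. They were 14 and 7 of 18 surface and vessel wall genes, and 7 and 5 of 11 transcription factors. Among the 4 brightest genes of each list, those that peaked on that array were 1 of the angiogenic receptors and ligands (Aplnr), 3 of the surface and vessel wall genes (Cav1, Cd93 and Mmrn2) and 2 of the transcription factors (Ets1 and Sox17). Mmrn2, a matrix protein of vessels, gave 615 and 4676 units in transgenic pools at 48 hours, against 711 and 2240 in control pools. Cav1, the coat protein of caveolae, gave 2749 and 10395 units in transgenic pools, against 1934 and 4392 in control pools. Sox17, a transcription factor of arterial endothelium, gave 247 and 1649 units in transgenic pools at 48 hours, against 275 and 529.8 in control pools. For each of these 3 genes transgenic 48 hours pool 2 was the brightest array and transgenic pool 1 lay below or between the control 48 hours pools. Aplnr, the apelin receptor, gave 1340 and 2854 units in transgenic pools, against 980 and 1747 in control pools. The other bright genes peaked elsewhere. Klf2, a transcription factor induced by flow that macrophages also express, gave 8416 and 9155 units in transgenic pools at 48 hours, against 6996 and 5257 in control pools. Klf2 and Lmo2, a transcription factor shared with blood cells, were higher in the pool numbered 2 of 1 group each. Vcam1, an adhesion molecule for leukocytes, gave 1368 and 1681 units in transgenic pools at 48 hours, against 2110 and 1858 in control pools, and peaked on transgenic 4 weeks pool 2. Nrp1, a co-receptor for VEGF that macrophages also carry, gave 16776 and 15652 units in transgenic pools at 48 hours, against 12545 and 15383 in control pools, and peaked on another array.

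None of these lists held a called gene. At 48 hours the median log2 difference was 0.07 over the 16 angiogenic receptors and ligands, with 8 positive and 8 negative. It was 0.43 over the 20 surface and vessel wall genes, with 14 positive and 6 negative, and 0.22 over the 12 transcription factors, with 9 positive and 3 negative. At 4 weeks these medians were −0.07, −0.12 and −0.06, with 7 of 16, 7 of 20 and 5 of 12 positive. In limma 0 genes of the 3 lists passed at either time, as 0% of all genes tested did. Of the 5 measured lymphatic endothelial genes 0 passed, although 2 had an unadjusted p under 0.05 at 48 hours, as 4.07% of all genes tested did. Lyve1, a hyaluronan receptor that tissue macrophages also carry, gave 28742 and 24791 units in transgenic pools at 48 hours, against 11000 and 14702 in control pools. Its log2 difference was 1.07, adjusted p = 0.976 in limma, and the groups did not overlap, which 18.9% of all genes tested showed in that direction. Lyve1 peaked on control 4 weeks pool 1, unlike the 6 genes above. Pdpn and Reln, 2 of the 5 lymphatic genes, did peak on transgenic 48 hours pool 2, as 9.6% of all genes tested did. Pdpn gave 761 and 902.5 units in transgenic pools at 48 hours, against 324.9 and 471.6 in control pools, without overlap. Its log2 difference was 1.02, adjusted p = 0.976 in limma, and it was higher in the pool numbered 2 of every group. The list median on transgenic 48 hours pool 2 was 0.55, the highest of the 8 arrays.

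Genes of the cells around vessels went with the endothelial genes across arrays. Of the 8 tested genes of pericytes and vessel smooth muscle, 5 peaked on transgenic 48 hours pool 2 and 4 were higher in the pool numbered 2 of every group. The shares over all genes tested were 9.6% and 8.53%. Rgs5, a regulator of G-protein signalling typical of pericytes, gave 971 and 6281 units in transgenic pools at 48 hours, against 1119 and 2556 in control pools. At 4 weeks Rgs5 gave 816 and 2061 units in transgenic pools, against 881 and 3817 in control pools. The summed signal of the list was 5823 and 17753 units in the transgenic 48 hours pools, against 5977 and 10703 in the control 48 hours pools. At 4 weeks it was 6354 and 9177 units in transgenic pools, against 6639 and 11497 in control pools, so it was lowest on transgenic 48 hours pool 1 and highest on pool 2 of that group. Of the 4 brightest genes of the list, Acta2 and Rgs5 peaked on transgenic 48 hours pool 2, and Pdgfrb and Abcc9 on control pools. The part of such cells in the endothelial values was not tested.

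Adipocyte genes also differed between the transgenic 48 hours pools. They stood at −0.46 and 0.47 in those pools, against 0.45 and −0.14 in the control pools, on the log2 scale relative to their mean. Of 5 tested adipocyte genes, 2 peaked on transgenic 48 hours pool 2 and 2 were higher in the pool numbered 2 of every group. The shares over all genes tested were 9.6% and 8.53%. Fabp4, a fatty acid binding protein of adipocytes that capillary endothelium and macrophages also express, gave 9475 and 27359 units in transgenic pools at 48 hours, against 8886 and 16442 in control pools. At 4 weeks Fabp4 gave 7002 and 17196 units in transgenic pools, against 8003 and 24637 in control pools. The summed signal of the list was 10358 and 28690 units in the transgenic 48 hours pools, against 10049 to 17367 in the control 48 hours pools, and most of it was Fabp4.

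Lists of other cells gave lower counts. Of 12 macrophage genes 0 peaked on transgenic 48 hours pool 2, and 3 were lower in the pool numbered 2 of every group. The shares over all genes tested were 9.6% and 8.73%. Of 8 tested platelet genes, which matter here because platelets carry Vwf, Pecam1 and Esam, 0 peaked on that array. In the pool numbered 2 of every group 1 was higher, as 8.53% of all genes tested were. The median of the 10 measured platelet genes was −0.10 and 0.30 in transgenic 48 hours pools 1 and 2, relative to their mean. It was 0.16 and 0.23 in the control 48 hours pools, so its highest value of the 8 arrays was on transgenic 48 hours pool 2. Pf4, the platelet chemokine that macrophages can also make, was bright throughout, at 46524 and 49087 units in transgenic pools at 48 hours, against 53098 and 53749 in control pools. The next brightest platelet genes were Treml1, Itga2b and Ppbp, with mean signals of 237, 215 and 120.4 units over the arrays, and each of them peaked on a control pool. Luminal epithelial genes stood at 0.44 and 0.50 in transgenic 48 hours pools 1 and 2, on the log2 scale relative to their mean. In the control 48 hours pools they stood at −0.79 and −1.02. Of 9 tested luminal genes 0 passed at 48 hours, and 6 had an unadjusted p under 0.05 in limma, as 4.07% of all genes tested did. Fibroblast genes stood at 0.13 and 0.07 in those transgenic pools, against −0.72 and 0.31 in the control pools. Of 10 fibroblast genes 1 peaked on transgenic 48 hours pool 2, and of 9 luminal and 8 neutrophil genes 0 did. Neutrophils also carry Cd11b, and their genes stood at −0.01 and −0.23 in those transgenic pools, against 0.61 and 0.42 in the control pools. The part of these cells in the endothelial values was not tested.

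The genes closest to the endothelial pattern were found by the mean absolute difference, over the 8 arrays, between a gene's centred log2 values and the mean centred values of the 8 endothelial genes tested. Of 6190 tested genes that varied at least as much as that mean, the 5 closest were Sh3rf1, Lnx1, Dst, Enpp4 and Acta2, at distances of 0.05, 0.12, 0.12, 0.13 and 0.14. The endothelial mean stood at −0.54 and 0.77 in transgenic 48 hours pools 1 and 2, against −0.23 and −0.15 in the control pools of that time. At 4 weeks it stood at −0.19 and 0.17 in transgenic pools, against −0.05 and 0.22 in control pools. Sh3rf1, a scaffold protein with SH3 domains, gave 95.7 and 308 units in transgenic 48 hours pools, against 129 and 150 in the control pools. Acta2, the actin of smooth muscle and pericytes, gave 2519 and 6805 units in transgenic 48 hours pools, against 3179 and 4593 in control pools. All of these genes were searched for likeness, so their closeness is a description of these 8 arrays.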

How the data were processed

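For each probe set the authors deposited 1 signal intensity per array. The submitters' processing notes name MAS5, with a version not given in the sources used here. RNA was amplified with a T7 method before labelling, per the labels' protocols. Values are linear and come without detection calls. Precision is limited by there being 2 arrays a group.

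Of 45101 probe sets, 34945 carried 1 gene symbol in the platform annotation, 932 several and 9160 none, and 64 were controls. Those with several or none were not used. Signals were turned into log2(signal + 30.8), the offset being the 25th percentile of all values, so differences of dim genes are understated. A gene was tested if its brightest probe set was above the array median on 2 or more of the 8 arrays, which left 13041 genes and 8 of the 9 endothelial genes. limma 3.58.1 in R 4.3.3 fitted a mean per group (4 residual degrees of freedom, prior with trend), with the genotype effect over both times fitted with time as covariate (5 residual degrees of freedom). P-values are two-sided, adjusted by Benjamini-Hochberg over all genes, threshold 0.05.

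The members, gene lists and tests were chosen with earlier results of these data known. Every endothelial gene is named. Of other lists, up to 4 genes with the highest mean signal could be named. In 10 simulated data sets of the 48 hours comparison, 200 of 13041 genes were changed. The test found 4.78% of the genes changed 2-fold, 60.6% of those changed 4-fold and 82% of those changed 8-fold, with 7.6 false calls on average. Noise was drawn separately for each gene and array. The simulation thus held no shift shared by many genes of an array, and its rates do not describe the endothelial genes in particular. Figures were drawn with matplotlib 3.10.9.

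The correlation of pool differences between groups, over all genes tested, ran from −0.085 to 0.13 and exceeded 0.1 for 3 of 6 group pairs. With correlations this low, the pool numbers were not taken as pairs. Alternatives were quantile normalization, other offsets, filters and probe set choices, no trend, array weights, a block for pool number, fits on only the 4 arrays compared, the actin ratio as covariate, and leaving out each pool. Leaving out a whole group from the count by pool number was added after seeing the data.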

Additional observations from a re-analysis of the deposited data

How the results depend on the processing

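No endothelial gene passed in any of the 6 comparisons under any alternative run, whether a change of processing or the omission of 1 pool (0 to 0 of them without 1 pool), and the median of the 9 genes moved by less than its pooled SD within groups (0.57, log2) under every alternative that kept all pools. The actin ratio as covariate nevertheless moved it to 0.56 at 48 hours, 0.32 at 4 weeks and 0.46 for both times, against 0.21, 0.02 and 0.09 without it, and moved Cldn5 at 4 weeks to 0.99 and Vwf to 0.91, against 0.03 and 0.22. The 4 genes higher in the pool numbered 2 of every group were 5, 4 and 4 when the transgenic 4 weeks, control 4 weeks or transgenic 48 hours group was left out, a choice made after seeing the data. The pool number as replicate block gave 0 endothelial genes in each comparison, and 2 genes of all those tested for transgenic minus control at 4 weeks and 4 for 4 weeks minus 48 hours in control pools, against 0 and 1 without it. With the 4 arrays of a comparison alone, 1 gene passed at 48 hours, 1 at 4 weeks and 0 over time in control pools. That last comparison had 0 genes with the filter at the 75th percentile, without the trend or with array weights, and 7 with the actin ratio as covariate.

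With all pools kept, differences changed sign in 7 cases. Emcn at 48 hours had 0.10 with quantile normalization and 0.12 with the actin covariate. At 4 weeks Pecam1 had −0.056 with the offset at the median of all values and −0.88 with the actin covariate, with which Cdh5 had 0.069, Esam 0.47 and Emcn 0.067. The cause was not tested, and adjusted p was 0.732 or more for every endothelial gene under every alternative of both genotype comparisons.

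Without 1 pool in turn, the median of the 9 genes ran from −0.44 to 0.88 at 48 hours, −0.32 to 0.18 at 4 weeks, −0.73 to 0.09 for their difference, −0.89 to 0.41 over time in transgenic pools, 0.02 to 0.39 over time in control pools and −0.20 to 0.29 for both times together. Genes passing ran from 0 to 7 over time in control pools, with 7 without control 4 weeks pool 2, and from 0 to 1 in the other 5 comparisons. In single genes at 48 hours the difference ran from −0.90 to 0.40 for Pecam1, −0.46 to 1.51 for Cdh5, −0.14 to 0.55 for Tek, −0.55 to 0.88 for Tie1, 0.14 to 0.71 for Eng, 0.13 to 1.88 for Vwf, −0.14 to 1.00 for Esam, −0.998 to 1.29 for Cldn5 and −0.44 to 0.30 for Emcn. At 4 weeks it ran from −1.14 to 1.33 for Pecam1, −1.11 to 0.34 for Cdh5, −0.40 to 0.049 for Tek, −0.12 to 0.44 for Tie1, −0.20 to 0.23 for Eng, −0.38 to 0.82 for Vwf, −0.81 to 0.33 for Esam, −0.63 to 0.69 for Cldn5 and −0.66 to −0.046 for Emcn. Signal near the array median limits Pecam1, Cdh5 and Emcn, and Tie1 is below it on all arrays.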
